A study of Mus musculus with 13 samples.

Results

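The genes described here are the replication-dependent histone genes of mouse LK cells, the Lin-, Sca-1-, c-kit+ progenitors of the bone marrow. They were taken as every gene of the deposited expression table whose symbol starts with Hist1h, Hist2h, Hist3h or Hist4h and whose mean over all 13 libraries was at least 0 on the log2 scale of CPM, the reads of a gene scaled to the total of its library. Among 24062 genes listed, 68 carried such a symbol, and 45 of these reached the level: 5 for the linker histone H1, 10 for H2a, 14 for H2b, 8 for H3 and 8 for H4. The next genes below the level were Hist1h2af, Hist1h4f and Hist1h2ae (means of -0.0011, -0.18 and -0.25), and the lowest inside it were Hist1h4k, Hist1h4j and Hist4h4 (0.13, 0.20 and 0.35). The libraries came from mice that were lethally irradiated (7.0 Gy, then 4.75 Gy after 3 hours) and given bone marrow of 1 of 4 genotypes. In the dKO group (4 libraries) the donor marrow lacked both TIFAB and miR-146a (TIFAB-/-;miR146a-/-). In the miR-146a_KO group (3 libraries) it lacked miR-146a and kept TIFAB (TIFAB+/+;miR-146a-/-). In the TIFAB_KO group (3 libraries) it lacked TIFAB and kept miR-146a (TIFAB-/-;miR-146a+/+). In the WT group (3 libraries) it kept both genes (TIFAB+/+;miR-146a+/+). All recipients were Boy/J mice, so the knockouts concern the transplanted cells, and the labels give an age of 2 to 5 months. TIFAB is an inhibitor of TRAF6 signalling and miR-146a is a microRNA that represses Traf6 and Irak1, so the design sets loss of each alone and of both together against an intact control. The labels name 3 mice per group and do not say which mouse each library came from, so p-values measure the spread between libraries, which may in part be technical.

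Replication-dependent histones supply the nucleosomes that package newly copied DNA. Their genes have no introns as a rule, are transcribed in S phase with the coactivator NPAT, and give messenger RNAs that end in a conserved stem-loop in place of a poly(A) tail; the stem-loop is bound by SLBP and cut to length with the U7 snRNP. H2A, H2B, H3 and H4 form the nucleosome core, and H1 binds the linker DNA between cores. In bone marrow these genes mark progenitors that are copying their DNA, and some of them can also be read from longer, polyadenylated transcripts. In bulk RNA of sorted cells, fewer cells in S phase and less histone RNA per cell cannot be told apart.

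The stem-loop sequences are shown first because they are the feature that defines the class, and because the length of transcript after them differs between genes that dominate the results. Letters matching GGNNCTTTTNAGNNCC were found in an annotated transcript of 30 of the 45 members (44 of the 68 genes), searched on the transcript strand, against 28 of 21856 other protein-coding genes of the annotation, which is 0.128% (by their longest transcript). The capitals mark the stem-loop letters, with 5 bases on each side in lower case, 5′ to 3′ on the transcript strand (GENCODE M21 transcripts, GRCm38, which is mm10).
Hist1h1e: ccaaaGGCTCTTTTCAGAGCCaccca
Hist2h2ac: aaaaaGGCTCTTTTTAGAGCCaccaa
Hist1h2bp: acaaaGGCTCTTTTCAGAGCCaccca
Hist1h3d: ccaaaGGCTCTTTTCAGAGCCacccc
Hist1h3e: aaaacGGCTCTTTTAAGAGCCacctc
Hist1h4d: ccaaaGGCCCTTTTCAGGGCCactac
Hist1h4i: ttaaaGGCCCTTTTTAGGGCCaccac
Hist4h4: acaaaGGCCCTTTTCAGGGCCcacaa
The capitals are at chr13:23621782-23621797 (minus strand) for Hist1h1e, chr3:96220418-96220433 (minus strand) for Hist2h2ac, chr13:21787923-21787938 (plus strand) for Hist1h2bp, chr13:23576244-23576259 (plus strand) for Hist1h3d, chr13:23561903-23561918 (minus strand) for Hist1h3e, chr13:23581950-23581965 (plus strand) for Hist1h4d, chr13:22040966-22040981 (minus strand) for Hist1h4i and chr6:136803998-136804013 (minus strand) for Hist4h4. The 3 H4 genes shown share one pair of stem letters and the 5 genes of the other types share another. The annotated transcript that holds the letters ended within 100 bases of the stem-loop in 13 members (11 to 74 bases after it), went on past it in 17 members (155 to 4884 bases) and held no such letters in 15 members, among them Hist1h2ai, Hist1h2bl and Hist1h4k, which are annotated as the coding sequence alone. Hist1h4d went on for 770 bases, Hist1h3d for 752 bases and Hist4h4 for 2445 bases, and no letters were found in Hist1h2bc.

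The promoters of the class share short boxes, and those of the most abundant gene, Hist1h4d, and of the gene with the smallest p-values, Hist1h3d, are printed as examples. Each line gives the 100 bases before the start site, 5′ to 3′ on the gene's strand, from the RefSeq promoter table (GRCm38.p6), with the TATAAA box and, on either strand, the CCAAT box in capitals.
Hist1h4d: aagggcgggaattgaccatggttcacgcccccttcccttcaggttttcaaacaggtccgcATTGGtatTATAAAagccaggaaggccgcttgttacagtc
Hist1h3d: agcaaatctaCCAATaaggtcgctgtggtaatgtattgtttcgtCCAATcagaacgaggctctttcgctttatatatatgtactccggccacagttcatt
They span chr13:23581468-23581567 (plus strand) and chr13:23575663-23575762 (plus strand). Of the 45 members 40 were matched to a RefSeq promoter of 250 bases before and 50 bases after the start. TATAAA on either strand was found in 25 of 40 (62.5%), against 14.2% of 27025 promoters of the same length. CCAAT on either strand was found in 36 of 40 (90%), against 37.9% of all promoters. These are letters in a window and were not tested as binding sites.

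The members lie in 4 clusters: 38 in Hist1 on chromosome 13, 5 in Hist2 on chromosome 3, 1 in Hist3 (Hist3h2a, chromosome 11) and 1 in Hist4 (Hist4h4, chromosome 6). In 5 places in Hist1 an H2a and an H2b gene face away from each other with start sites under 500 bases apart. The closest pair, Hist1h2ak and Hist1h2bn, had starts 164 bases apart, and Hist1h2ai and Hist1h2bl had starts 229 bases apart. Within that second pair the mean level was 144 CPM per kb of transcript for Hist1h2bl and 7.90 CPM per kb for Hist1h2ai.

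Many histone genes are near copies of each other, which limits what a count for 1 gene can mean. Every stretch of 50 bases of each annotated transcript was looked up in all GENCODE transcripts, and the share found at a single place in the genome had a median of 59.6% over the 45 members (9.88% to 100%). It was 9.88% for Hist1h2ai, 17.2% for Hist1h2bl, 28.5% for Hist1h4k and 26.6% for Hist1h3e, against 75.2% for Hist1h3d, 89.8% for Hist1h4d and 100% for Hist1h1b. In 10 of the 68 genes no read was counted in any library, and their median share was 8.56%. Of the 45 members 6 were under 25%, against 7 of these 10 genes. The labels do not say how reads with several places in the genome were counted, so values of single genes with low shares are uncertain. Hist1h1e shares 496 exon bases with a transcript of Hist1h2be on the same strand, and Hist3h2a shares 708 with Trim17, so reads there cannot be assigned to 1 gene.

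**Figure D1:**
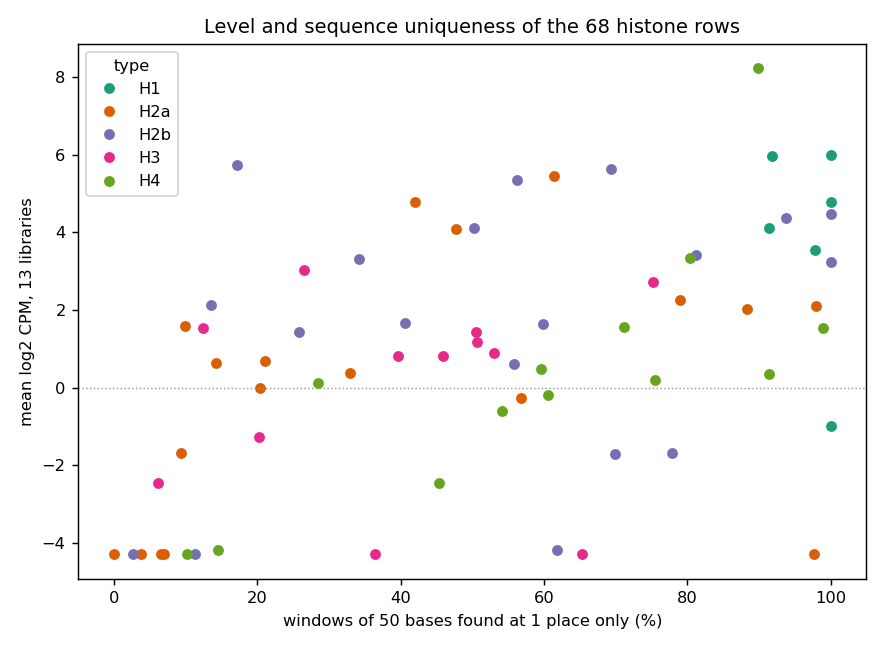
Each point is 1 of the 68 histone genes, coloured by type. The horizontal axis is the share of 50-base windows of its annotated transcripts found at 1 place in the genome (%), the vertical axis its mean log2 CPM over 13 libraries, and the dotted line the level of 0 that members had to reach. The genes with 0 reads in all libraries sit at the bottom, mostly at the left, while H1 genes lie at 91.5% or more.

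Depth was 7.83 to 12.8 M counted reads per library, of which 6777 to 16229 fell on the 45 members, so the lowest members rest on few reads. Tifab, the targeted gene, had 3.23 to 11 CPM in dKO libraries, 64.4 to 70.8 CPM in miR-146a_KO libraries, 8.95 to 12.8 CPM in TIFAB_KO libraries and 39.6 to 49.4 CPM in WT libraries. The dKO and TIFAB_KO libraries lay below those of the other groups, in the direction of the labels. The miR-146a_KO libraries lay wholly above the WT libraries, though the labels give both groups as TIFAB+/+. Which part of Tifab the remaining reads cover cannot be read from gene totals. The 7 progenitor genes listed (Kit, Cd34, Gata2, Mpo, Gata1, Klf1 and Myb) summed to 9905 to 13383 CPM in dKO libraries, 11339 to 13418 CPM in miR-146a_KO libraries, 14237 to 16645 CPM in TIFAB_KO libraries and 8829 to 13348 CPM in WT libraries, so that TIFAB_KO lay wholly above the other groups. Of these only Kit, which encodes c-kit, is a marker used in the sort. Ly6a, which encodes Sca-1, stayed at 0.597 to 5.30 CPM. Summed markers of late granulocytes (8 genes) ranged over 19.4 to 528 CPM in dKO libraries, 41.4 to 79.5 CPM in miR-146a_KO libraries, 33.4 to 197 CPM in TIFAB_KO libraries and 20.3 to 68.7 CPM in WT libraries. Macrophage markers (7 genes measured) summed to 193 to 225 CPM in dKO libraries, 183 to 214 CPM in miR-146a_KO libraries, 238 to 258 CPM in TIFAB_KO libraries and 144 to 184 CPM in WT libraries. B cell markers (7 genes) summed to 15.5 to 23.9 CPM in dKO libraries, 24.8 to 33.5 CPM in miR-146a_KO libraries, 13.6 to 17.4 CPM in TIFAB_KO libraries and 13.2 to 18.8 CPM in WT libraries. T and NK cell markers (6 genes) summed to 191 to 300 CPM in dKO libraries, 183 to 217 CPM in miR-146a_KO libraries, 238 to 320 CPM in TIFAB_KO libraries and 176 to 242 CPM in WT libraries. Stromal markers (6 genes) summed to 81.7 to 131 CPM over all libraries. Late erythroid markers (7 genes measured) stayed at 18.5 to 31.8 CPM with Hba-a1, Hba-a2, Hbb-bs and Hbb-bt at 0 reads in every library, so their sum rests on the other genes measured. Whether reads of the genes at 0 were lost to several places in the genome was not tested. The part of these cell types in the histone values was not tested. Over all 11867 genes tested, TIFAB_KO replicate 3 and dKO replicate 3 were least like the other libraries, with median correlations over genes of 0.947 and 0.951, against 0.962 to 0.974 for the others.

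Summed over members, histone reads were 839 to 961 CPM in dKO libraries, 794 to 891 CPM in miR-146a_KO libraries, 881 to 1269 CPM in TIFAB_KO libraries and 798 to 1050 CPM in WT libraries. The range of each knockout group overlaps that of WT, and the highest sum was that of TIFAB_KO replicate 3. That library had the highest value of all 13 for 22 of the 45 members (48.9%), against 10.1% of all genes tested, and the lowest value for none, against 28.6% of all genes tested. It also had the largest share of reads on the ribosomal precursor Rn45s (10.7%, against 3.85% to 9.09% in the other 12 libraries), the lowest level of the nuclear RNA Malat1 (9.77 log2 CPM, against 11.52 to 12.05) and the lowest level of the proliferation marker Mki67 (10.80, against 11.19 to 11.94). At the other end, WT replicate 3 had the lowest value for 16 of the 45 members (35.6%), against 5.30% of all genes tested. Its share of reads on Rn45s was 4.20%. The part of these measures in the histone levels was not tested.

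By type, 20.2% of member reads fell on H1, 12.5% on H2a, 28.6% on H2b, 3.32% on H3 and 35.3% on H4, without correction for length. H3 sums were 34.6 ± 9.07 CPM in dKO libraries, 33.3 ± 4.18 CPM in miR-146a_KO libraries, 28.7 ± 5.60 CPM in TIFAB_KO libraries and 22.5 ± 0.604 CPM in WT libraries (SD, n = 4, 3, 3 and 3). All 3 miR-146a_KO and all 3 TIFAB_KO libraries lay above the 3 WT libraries in H3, as did 3 of the 4 dKO libraries, and dKO replicate 4 (21.7 CPM) lay below them. Without Hist1h3d the H3 sums were 21.3 ± 2.46 CPM in dKO libraries, 23.1 ± 2.38 CPM in miR-146a_KO libraries, 25.1 ± 5.15 CPM in TIFAB_KO libraries and 18.7 ± 1.89 CPM in WT libraries. The miR-146a_KO (21.01 to 25.7 CPM) and TIFAB_KO libraries (22.0 to 31.0 CPM) still lay above the WT libraries (16.6 to 20.3 CPM), and the dKO libraries (17.7 to 23.4 CPM) overlapped them. H2a sums were 117 ± 30.4 CPM in dKO libraries, 127 ± 18.6 CPM in miR-146a_KO libraries, 120 ± 29.3 CPM in TIFAB_KO libraries and 90.8 ± 15.9 CPM in WT libraries. In H2a the miR-146a_KO libraries alone lay wholly above the WT libraries (112 to 148 CPM, against 74.5 to 106 CPM). H1 sums were 174 ± 24.0 CPM in dKO libraries, 162 ± 5.59 CPM in miR-146a_KO libraries, 226 ± 65.7 CPM in TIFAB_KO libraries and 193 ± 27.3 CPM in WT libraries, and only the miR-146a_KO libraries (157 to 168 CPM) lay wholly below the WT libraries (172 to 224 CPM). H2b sums were 248 ± 38.2 CPM in dKO libraries, 232 ± 17.3 CPM in miR-146a_KO libraries, 283 ± 24.6 CPM in TIFAB_KO libraries and 298 ± 101 CPM in WT libraries, where replicate 1 reached 414 CPM. H4 sums were 325 ± 23.5 CPM in dKO libraries, 286 ± 33.9 CPM in miR-146a_KO libraries, 366 ± 89.0 CPM in TIFAB_KO libraries and 326 ± 47.8 CPM in WT libraries. These sums are descriptions and were given no test.

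**Figure D2:**
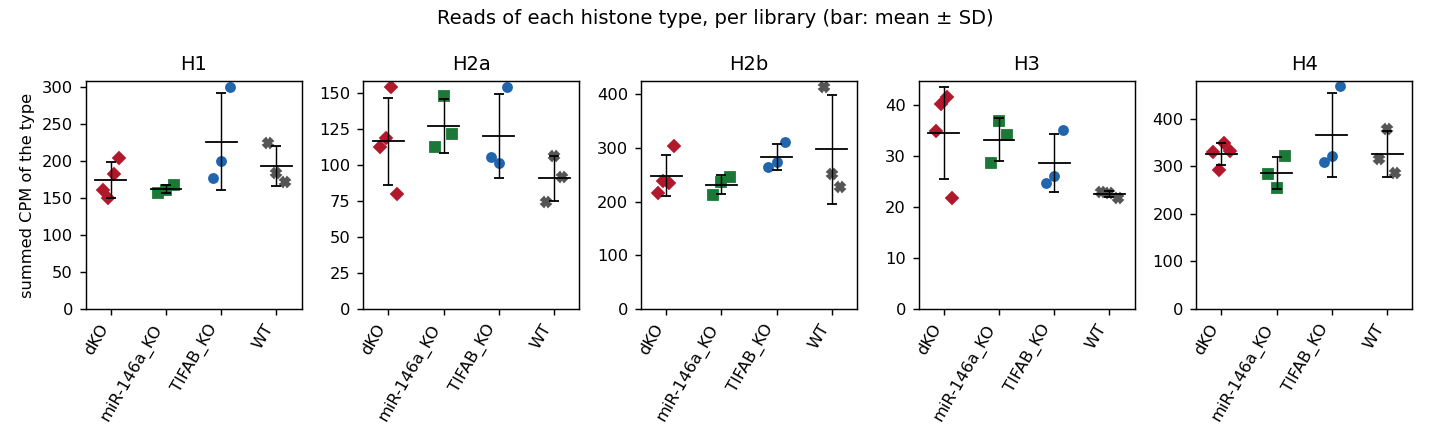
Summed CPM of the members of each histone type (vertical axis, from 0, each panel with its own scale) in the 4 groups; each point is 1 library and the bars are the mean ± SD. The H3 sums of WT libraries (21.9 to 23.0 CPM) sit close together, and the highest H1 and H4 points belong to TIFAB_KO replicate 3 (301 and 468 CPM).

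Among the H4 genes, and among all 45, Hist1h4d was the most abundant per length, at 267 CPM per kb of transcript averaged over the 13 libraries; it is 1 of the many genes for the core histone H4. Its level was 8.26, 8.08, 8.33 and 8.28 log2 CPM in dKO libraries, 8.06, 7.84 and 8.23 in miR-146a_KO libraries, 8.16, 8.23 and 8.77 in TIFAB_KO libraries, and 8.20, 8.47 and 8.06 in WT libraries. This 1 gene held 27.4% to 37.7% of the reads of all 45 members, and H4 without it summed to 17.8 to 31.7 CPM per library. Its groups overlapped, with TIFAB_KO replicate 3 highest. Hist1h4c had 12.7 CPM per kb, at 3.08, 3.72, 3.83 and 3.14 log2 CPM in dKO libraries, 2.97, 3.34 and 2.69 in miR-146a_KO libraries, 3.56, 3.08 and 3.88 in TIFAB_KO libraries, and 3.23, 3.62 and 3.39 in WT libraries. Hist1h4i had 4.23 CPM per kb, at 1.94, 2.05, 0.53 and 1.12 log2 CPM in dKO libraries, 1.78, 2.17 and 2.01 in miR-146a_KO libraries, 1.71, 1.02 and 2.27 in TIFAB_KO libraries, and 1.25, 0.99 and 1.39 in WT libraries. The dKO and TIFAB_KO libraries overlapped WT in both, as did the miR-146a_KO libraries in Hist1h4c, while all 3 miR-146a_KO libraries lay above WT in Hist1h4i.

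Among the H2b genes, which encode the core histone partner of H2A, Hist1h2bl had 144 CPM per kb, at 5.39, 5.41, 5.46 and 5.93 log2 CPM in dKO libraries, 5.49, 5.77 and 5.97 in miR-146a_KO libraries, 5.65, 6.12 and 6.38 in TIFAB_KO libraries, and 5.98, 5.88 and 5.25 in WT libraries. Hist1h2bm had 79.8 CPM per kb, at 5.28, 4.57, 5.34 and 5.78 log2 CPM in dKO libraries, 5.00, 5.43 and 5.59 in miR-146a_KO libraries, 5.25, 5.80 and 5.71 in TIFAB_KO libraries, and 5.53, 5.36 and 4.91 in WT libraries. The groups of both overlapped. Hist1h2bc, a gene with no stem-loop letters in its annotated transcripts, had 45.5 CPM per kb, at 5.20, 5.74, 5.17 and 5.53 log2 CPM in dKO libraries, 5.63, 4.97 and 4.93 in miR-146a_KO libraries, 6.47, 5.20 and 5.69 in TIFAB_KO libraries, and 6.56, 5.79 and 6.19 in WT libraries. All 4 dKO and all 3 miR-146a_KO libraries lay below the lowest WT library in Hist1h2bc, and the TIFAB_KO libraries overlapped WT.

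Among the H2a genes, Hist2h2ac had 88.3 CPM per kb, at 5.43, 5.68, 6.21 and 4.83 log2 CPM in dKO libraries, 5.52, 5.92 and 5.17 in miR-146a_KO libraries, 5.60, 5.16 and 6.15 in TIFAB_KO libraries, and 4.57, 5.36 and 5.24 in WT libraries. Hist1h2ab had 61.6 CPM per kb, at 4.83, 5.16, 5.44 and 3.95 log2 CPM in dKO libraries, 4.97, 5.56 and 5.15 in miR-146a_KO libraries, 4.60, 4.57 and 4.83 in TIFAB_KO libraries, and 3.64, 4.68 and 4.78 in WT libraries. All miR-146a_KO libraries lay above the WT libraries in Hist1h2ab, and dKO replicate 4 and WT replicate 1 were the 2 lowest libraries in both genes. Hist1h2ak had 43.6 CPM per kb, at 4.37, 3.81, 3.90 and 3.97 log2 CPM in dKO libraries, 4.16, 4.07 and 4.40 in miR-146a_KO libraries, 3.75, 4.21 and 4.29 in TIFAB_KO libraries, and 4.30, 4.16 and 3.70 in WT libraries, and its range of 0.70 over all 13 libraries was the narrowest among the 45 members.

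Of the linker histones, Hist1h1b had 87.7 CPM per kb, at 5.76, 5.38, 5.95 and 6.28 log2 CPM in dKO libraries, 5.88, 5.92 and 6.02 in miR-146a_KO libraries, 5.83, 6.20 and 6.87 in TIFAB_KO libraries, and 6.04, 5.85 and 5.82 in WT libraries. Hist1h1a had 39.9 CPM per kb, at 4.69, 4.15, 4.17 and 5.34 log2 CPM in dKO libraries, 4.45, 4.74 and 4.83 in miR-146a_KO libraries, 4.29, 5.47 and 5.87 in TIFAB_KO libraries, and 5.09, 4.77 and 4.46 in WT libraries. In both, TIFAB_KO replicate 3 was highest and the groups overlapped. Hist1h1e had 32.7 CPM per kb, at 5.77, 6.05, 6.04 and 5.95 log2 CPM in dKO libraries, 5.71, 5.64 and 5.65 in miR-146a_KO libraries, 6.08, 5.87 and 6.27 in TIFAB_KO libraries, and 6.39, 6.04 and 6.08 in WT libraries. The 3 miR-146a_KO libraries were the lowest 3 of the 13 in Hist1h1e, under every dKO, TIFAB_KO and WT library.

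Of the H3 genes, which encode the core histone that carries many of the studied tail marks, Hist1h3e had 10.0 CPM per kb, at 3.10, 3.17, 2.89 and 2.70 log2 CPM in dKO libraries, 2.97, 3.09 and 3.23 in miR-146a_KO libraries, 3.45, 3.08 and 3.66 in TIFAB_KO libraries, and 2.73, 3.04 and 2.46 in WT libraries. Hist1h3i had 7.26 CPM per kb, at 1.42, 1.96, 2.29 and 1.17 log2 CPM in dKO libraries, 1.78, 1.71 and 1.76 in miR-146a_KO libraries, 1.22, 1.09 and 1.21 in TIFAB_KO libraries, and 1.76, 0.83 and 1.90 in WT libraries. Hist1h3d had 6.55 CPM per kb, at 3.72, 4.08, 4.29 and 2.02 log2 CPM in dKO libraries, 2.97, 3.85 and 3.09 in miR-146a_KO libraries, 1.43, 2.04 and 2.04 in TIFAB_KO libraries, and 1.44, 1.89 and 2.40 in WT libraries. In Hist1h3d, 3 of the 4 dKO and all 3 miR-146a_KO libraries lay above every TIFAB_KO and WT library, and dKO replicate 4 lay among the TIFAB_KO and WT libraries. The levels per kb use the longest annotated transcript of each gene.

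**Figure D3:**
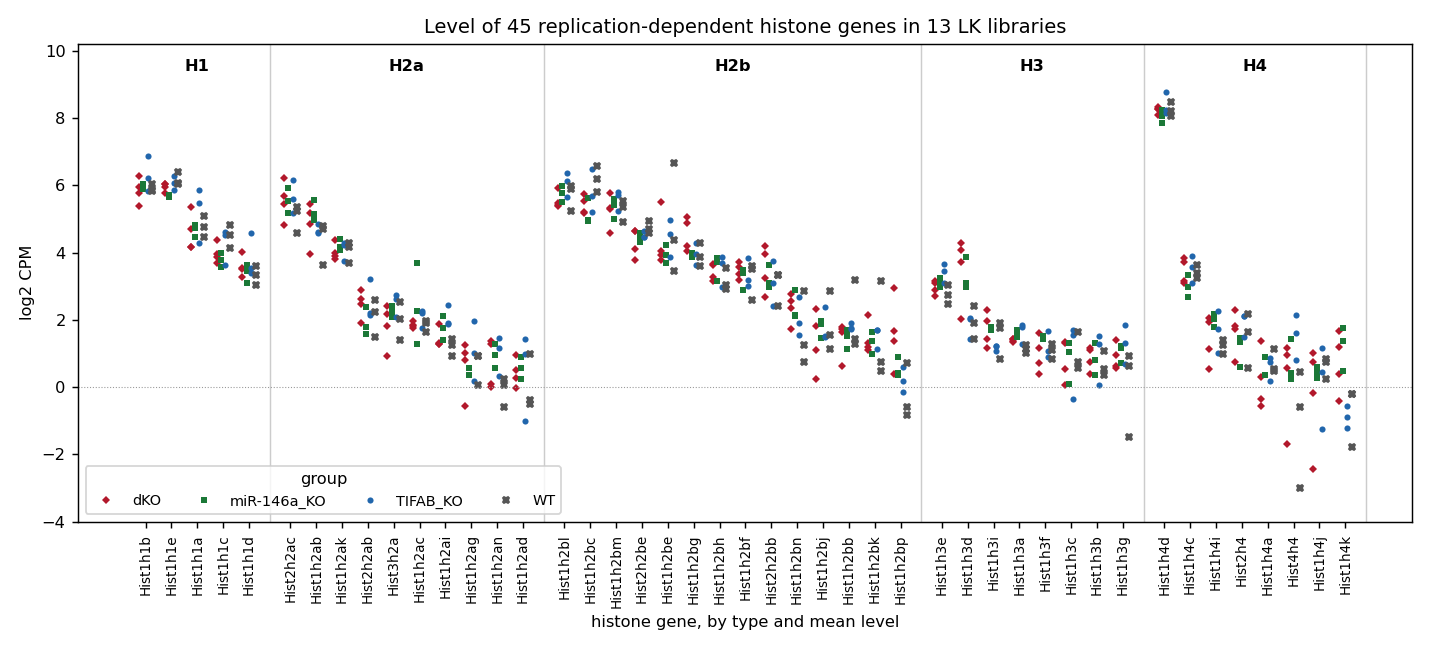
log2 CPM (vertical axis) of each of the 45 members in each of the 13 libraries, with genes along the horizontal axis by type and falling mean; symbols mark the 4 groups. CPM is not corrected for length, so heights compare libraries within a gene. Hist1h4d stands at 7.84 to 8.77 in all libraries, while Hist4h4, counted from 1 to 56 reads, spans -2.999 to 2.14.

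The 6 comparisons used limma on the deposited log2 CPM over 11867 genes with a mean of at least 0, with Benjamini-Hochberg adjusted p under 0.05 as the threshold and a fold change given as the difference of group means on the log2 scale. No histone member passed in any of the 6, so the values below are estimates with their errors and no member is reported as changed. Comparisons with WT share the 3 WT libraries, and the comparisons of dKO with another group share the 4 dKO libraries. The TIFAB_KO libraries enter TIFAB_KO against WT and, with the opposite sign, dKO against TIFAB_KO. The same holds for the miR-146a_KO libraries in miR-146a_KO against WT and dKO against miR-146a_KO. All groups enter the interaction, so the results of the 6 comparisons are not independent.

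In dKO against WT, 0 of 45 members passed, against 8 of all 11867 genes (0.0674%), and limma with voom weights on the recovered reads also passed 0. At an unadjusted p under 0.05 there were 6 members (13.3%), 4 higher and 2 lower in dKO, against 14.1% of all genes (9.7% higher and 4.36% lower). The groups did not overlap in 1 member higher and 1 lower in dKO, against 8.9% and 3.62% of all genes. The median log2 fold change was 0.18 over the members and 0.08 over all genes, with -0.18 in H1, 0.30 in H2a, -0.02 in H2b, 0.22 in H3 and 0.10 in H4, and 25 of the 45 members were above 0, against 60% of all genes. Without WT replicate 3 the member median was 0.020 and that of all genes 0.11, without dKO replicate 3 the member median was 0.083, and over the 20 members with a mean of at least 3 it was -0.015. Removing the trend of each library on transcript length gave 0.23, with 35 of 45 members above 0 and 0.070 over all genes. Leaving out WT replicate 1 gave 0.15, with 32 of 45 members above 0 and 0.065 over all genes. Hist1h3d had a log2 fold change of 1.61 (SE 0.43, limma adjusted p = 0.189), with 3 of the 4 dKO libraries above every WT library. Without dKO replicate 4 it was 2.12, with an adjusted p of 0.00497, and all genes passing numbered 336 in place of 8. Hist1h2bp, an H2b gene, had 0.39, 1.66, 1.37 and 2.93 log2 CPM in dKO libraries, 0.37, 0.89 and 0.42 in miR-146a_KO libraries, -0.16, 0.18 and 0.61 in TIFAB_KO libraries, and 0.70, -0.59 and -0.83 in WT libraries, from 5 to 89 reads per library, and a log2 fold change of 1.83 (SE 0.57, limma adjusted p = 0.217) with dKO replicate 4 the highest of all libraries. Hist1h2bc had a log2 fold change of -0.77 (SE 0.26, limma adjusted p = 0.237), with all 4 dKO libraries below the WT libraries. Hist2h2be, a further H2b gene, had 4.64, 4.09, 3.78 and 4.65 log2 CPM in dKO libraries, 4.32, 4.47 and 4.58 in miR-146a_KO libraries, 4.63, 4.46 and 4.47 in TIFAB_KO libraries, and 4.69, 4.57 and 4.94 in WT libraries, and a log2 fold change of -0.44 (SE 0.21, limma adjusted p = 0.355) with overlapping groups, which was -0.27 without dKO replicate 3.

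In miR-146a_KO against WT, 0 of 45 members passed, against 10 of all genes (0.0843%), and 0 with voom weights. At an unadjusted p under 0.05 there were 6 members (13.3%), 3 in each direction, against 9.53% of all genes (7.23% higher and 2.3% lower). The groups did not overlap in 7 members higher and 3 lower in miR-146a_KO, against 15.5% and 6.4% of all genes. The median log2 fold change was 0.08 over the members and 0.09 over all genes; it was -0.10 in H1, 0.50 in H2a, 0.02 in H2b, 0.39 in H3 and -0.17 in H4. Above 0 were 28 of the 45 members, against 62.2% of all genes. With each library centred on its median over all genes the member median was -0.0049, with 22 of the 45 members above 0, and with quantile normalisation it was -0.016. It was -0.015 without WT replicate 3, -0.0010 without miR-146a_KO replicate 3 and 0.21 without WT replicate 1. Hist1h3d had a log2 fold change of 1.39 (SE 0.46, limma adjusted p = 0.443), and each of the 3 miR-146a_KO libraries lay above each WT library. With library quality weights it passed, at 1.38 with an adjusted p of 0.0410, and all genes passing numbered 213 in place of 10. Hist1h4k, an H4 gene counted from 3 to 30 reads per library, had 1.68, 1.20, -0.42 and 0.40 log2 CPM in dKO libraries, 0.49, 1.38 and 1.76 in miR-146a_KO libraries, -0.90, -0.56 and -1.22 in TIFAB_KO libraries, and -1.78, -0.21 and -0.20 in WT libraries. Its log2 fold change was 1.94 (SE 0.67, limma adjusted p = 0.454), and the 3 miR-146a_KO libraries lay above the 3 WT libraries. Hist1h2bc had a log2 fold change of -1.003 (SE 0.28, limma adjusted p = 0.401), which passed at an adjusted p of 0.0409 when only the miR-146a_KO and WT libraries entered the fit. In that fit all genes passing numbered 89 in place of 10. Hist1h1e had a log2 fold change of -0.51 (SE 0.16, limma adjusted p = 0.408).

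In TIFAB_KO against WT, 0 of 45 members passed, against 2 of all genes (0.0169%), and 0 with voom weights. At an unadjusted p under 0.05 there were 4 members (8.89%), all higher in TIFAB_KO, against 5.11% of all genes in either direction (2.99% higher and 2.12% lower). The groups did not overlap in 5 members higher and 0 lower in TIFAB_KO, against 5.21% and 3.31% of all genes. The median log2 fold change was 0.30 over the members and -0.01 over all genes, with 0.39 in H1, 0.42 in H2a, 0.06 in H2b, 0.22 in H3 and 0.12 in H4, and 32 of the 45 members, among them all 10 H2a genes, were above 0, against 47.6% of all genes (52.4% were below 0). Without TIFAB_KO replicate 3 the member median was -0.0016, with 0.10 in H1, 0.18 in H2a, -0.13 in H2b, -0.04 in H3 and -0.03 in H4. Above 0 were then 22 of the 45 members and 7 of the 10 H2a genes. The summed progenitor genes and macrophage markers given above were also higher in all 3 TIFAB_KO libraries than in any WT library. For the macrophage markers this held for all dKO libraries too (193 to 225 CPM, against 144 to 184 CPM in WT libraries). The part of these genes in the histone values was not tested. Hist4h4, the 1 member of the Hist4 cluster, had 0.96, -1.69, 1.17 and 0.58 log2 CPM in dKO libraries, 0.24, 1.43 and 0.42 in miR-146a_KO libraries, 1.61, 0.82 and 2.14 in TIFAB_KO libraries, and -2.999, 0.46 and -0.58 in WT libraries, and rests on 1 to 56 reads per library. Its log2 fold change was 2.56 (SE 0.84, limma adjusted p = 0.678), with the 3 TIFAB_KO libraries above the 3 WT libraries and WT replicate 1 at 1 read. Without WT replicate 1 the log2 fold change of Hist4h4 was 1.58. Hist1h3e had a log2 fold change of 0.66 (SE 0.26, limma adjusted p = 0.848), also without overlap. The most negative by p were Hist1h2bc at -0.39 (SE 0.28) and Hist2h2be at -0.21 (SE 0.22), both with a limma adjusted p of 0.999. Leaving out TIFAB_KO replicate 1 gave -0.73 for Hist1h2bc, leaving out TIFAB_KO replicate 2 gave -0.10 and leaving out WT replicate 1 gave -0.20, and Hist2h2be was -0.11 without WT replicate 3.

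**Figure D4:**
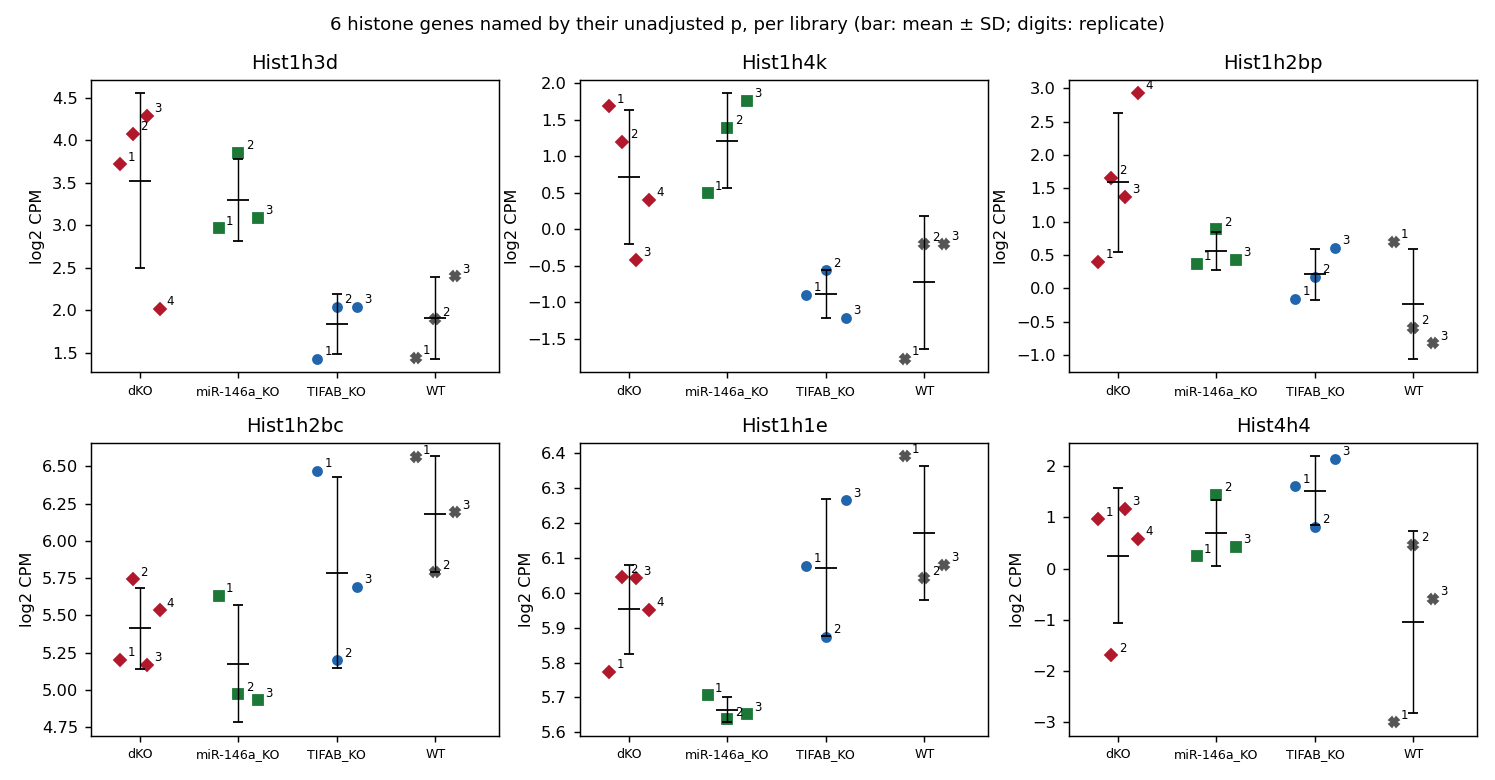
log2 CPM (vertical axis, each panel with its own scale) of 6 members named by their unadjusted p, by group along the horizontal axis; each point is 1 library with its replicate number, and the bars are the mean ± SD. In Hist1h3d, dKO replicate 4 lies at 2.02 while the other 3 dKO libraries lie at 3.72 to 4.29.

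In dKO against TIFAB_KO, 0 of 45 members passed, against 4 of all genes (0.0337%), and 0 with voom weights. At an unadjusted p under 0.05 there were 6 members (13.3%), 4 higher and 2 lower in dKO, against 18.5% of all genes (12.6% higher and 5.93% lower). The groups did not overlap in 1 member higher and 1 lower in dKO, against 6.82% and 3.84% of all genes. The median log2 fold change was -0.23 over the members and 0.09 over all genes, and 36 of the 45 members were below 0, against 39.9% of all genes (60.1% were above 0). It was -0.29 in H1, -0.16 in H2a, -0.12 in H2b, -0.20 in H3 and -0.26 in H4. Without TIFAB_KO replicate 3 the member median was -0.0075, with -0.11 in H1, 0.03 in H2a, -0.04 in H2b, 0.09 in H3 and -0.06 in H4. With the trend of each library on transcript length removed it was -0.03, with 22 of 45 members above 0. Hist1h3d had a log2 fold change of 1.69 (SE 0.43, limma adjusted p = 0.130), and without dKO replicate 4 it was 2.20 with an adjusted p of 0.00443. All genes passing then numbered 278 in place of 4. Hist1h4k had a log2 fold change of 1.61 (SE 0.62, limma adjusted p = 0.200), with all 4 dKO libraries above the 3 TIFAB_KO libraries. Hist1h2bl had a log2 fold change of -0.50 (SE 0.21, limma adjusted p = 0.224) and Hist1h1b one of -0.46 (SE 0.22, limma adjusted p = 0.266); without TIFAB_KO replicate 3 these were -0.34 and -0.17. Hist1h1b was -0.69 without TIFAB_KO replicate 1 and -0.30 without dKO replicate 2.

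In dKO against miR-146a_KO, 0 of 45 members passed, against 6 of all genes (0.0506%), and 0 with voom weights. At an unadjusted p under 0.05 there was 1 member (2.22%), higher in dKO, against 1.93% of all genes (0.868% higher and 1.06% lower). The groups did not overlap in 2 members higher and 1 lower in dKO, against 1.61% and 2.12% of all genes. The median log2 fold change was -0.08 over the members and -0.01 over all genes, with 0.19 in H1, -0.22 in H2a, 0.04 in H2b, -0.08 in H3 and -0.39 in H4. Below 0 were 27 of the 45 members, against 52.2% of all genes (47.8% were above 0). The member median was 0.040, with 23 of 45 above 0, without dKO replicate 2, and 0.095 over the 20 members with a mean of at least 3. Hist1h2bg, an H2b gene, had 4.03, 5.04, 4.89 and 4.19 log2 CPM in dKO libraries, 3.99, 3.97 and 3.87 in miR-146a_KO libraries, 3.96, 3.64 and 4.27 in TIFAB_KO libraries, and 4.28, 3.87 and 3.60 in WT libraries. Its log2 fold change was 0.59 (SE 0.25, limma adjusted p near 1.00), with all 4 dKO libraries above the miR-146a_KO libraries. Hist1h1e had a log2 fold change of 0.29 (SE 0.15), also without overlap. Hist1h4i had one of -0.58 (SE 0.42), with overlapping groups, and -0.28 without dKO replicate 3. Hist1h2ac, an H2a gene, had 1.98, 1.77, 1.81 and 1.86 log2 CPM in dKO libraries, 1.27, 2.26 and 3.68 in miR-146a_KO libraries, 1.77, 2.19 and 2.27 in TIFAB_KO libraries, and 1.89, 1.97 and 1.65 in WT libraries. Its log2 fold change of -0.55 (SE 0.42) was -1.12 without miR-146a_KO replicate 1 and became 0.088 without miR-146a_KO replicate 3, which was the highest of the 13 libraries.

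Whether loss of both genes differed from the sum of the single losses was asked with an interaction term: the difference of dKO from miR-146a_KO less the difference of TIFAB_KO from WT. Here 0 of 45 members passed, as did 0 of all genes (0%), and voom weights also gave 0 members. At an unadjusted p under 0.05 there were 3 members (6.67%), all below 0, against 4.23% of all genes (1.68% above 0 and 2.55% below 0). The median was -0.29 over the members and 0.01 over all genes, with -0.32 in H1, -0.63 in H2a, 0.08 in H2b, -0.47 in H3 and -0.20 in H4; 27 of the 45 members, 9 of the 10 H2a genes among them, were below 0, against 48.8% of all genes (51.2% were above 0). Without TIFAB_KO replicate 3 the member median was -0.05, with 0.06 in H1, -0.46 in H2a, 0.14 in H2b, -0.21 in H3 and -0.04 in H4. Hist4h4 had an interaction of -3.01 (SE 1.15) and Hist1h2ai one of -1.19 (SE 0.50), both with a limma adjusted p near 1.00. Hist1h2ai had 1.30, 1.27, 1.86 and 1.28 log2 CPM in dKO libraries, 1.40, 1.75 and 2.10 in miR-146a_KO libraries, 1.86, 1.91 and 2.44 in TIFAB_KO libraries, and 1.25, 1.43 and 0.92 in WT libraries. Hist1h1e at 0.39 (SE 0.21) and Hist1h2bc at 0.63 (SE 0.38) were the most positive by p, and Hist1h2bc ranged from 0.33 to 0.97 without TIFAB_KO replicate 2 or 1.

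**Figure D5:**
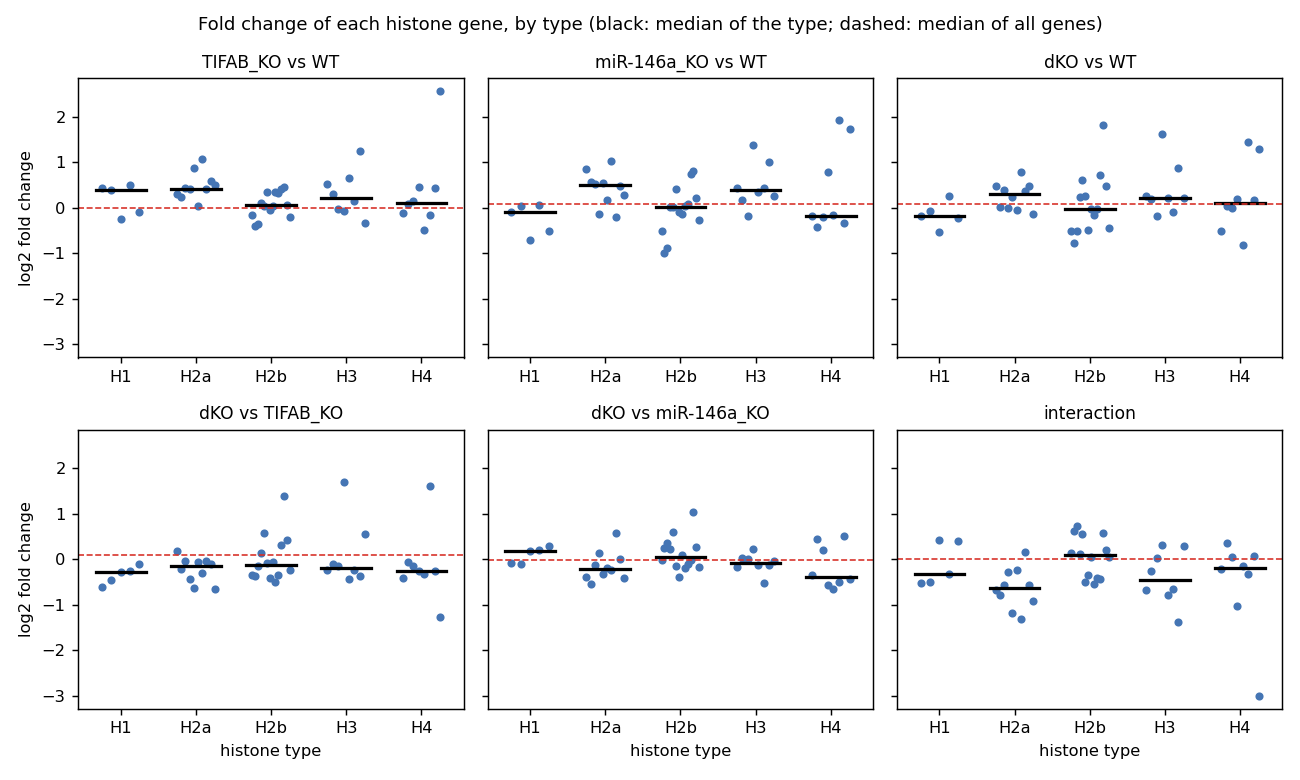
log2 fold change (vertical axis) of each member in the 6 comparisons, by histone type along the horizontal axis; the black bar is the median of the type and the dashed line the median of all 11867 genes. In TIFAB_KO against WT all 10 H2a points lie above 0, and 7 of the 10 do without TIFAB_KO replicate 3. No point in any panel passed the test.

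Grouped by the annotated transcript end, medians in dKO against WT were 0.20 over the 13 members that end near the stem-loop, 0.03 over the 17 that go on past it and 0.22 over the 15 without the letters. For the same 3 sets, medians were 0.08, 0.06 and 0.16 in miR-146a_KO against WT and 0.30, 0.14 and 0.34 in TIFAB_KO against WT. Hist1h3d and Hist1h1e belong to the genes that go on past the stem-loop, and Hist1h2bp to those that end near it.

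Genes that act on histone RNA or histones were compared in the same fits. Of 28 genes measured for histone pre-mRNA processing and decay, 0 passed in any of the 6 comparisons. The smallest p-values against WT were those of Npat, the coactivator of histone transcription, and Snrpe, an Sm protein shared by U7 and spliceosomal snRNPs. Npat had 7.53, 7.72, 7.43 and 7.20 log2 CPM in dKO libraries, 7.22, 7.40 and 7.20 in miR-146a_KO libraries, 7.04, 7.02 and 6.43 in TIFAB_KO libraries, and 6.76, 6.96 and 7.22 in WT libraries, a log2 fold change in dKO against WT of 0.49 (SE 0.17, limma adjusted p = 0.240). Snrpe had 4.96, 5.25, 5.32 and 5.26 log2 CPM in dKO libraries, 5.16, 5.39 and 5.13 in miR-146a_KO libraries, 5.36, 5.32 and 6.11 in TIFAB_KO libraries, and 5.73, 5.62 and 5.77 in WT libraries, a log2 fold change of -0.51 (SE 0.18, limma adjusted p = 0.258), with every dKO library below every WT library. Of 26 measured histone chaperones and assembly factors 0 passed. Ubn1, of the HIRA complex, had a log2 fold change of 0.38 in miR-146a_KO against WT (SE 0.17, limma adjusted p = 0.521) and Asf1b, a chaperone of H3 and H4, one of 0.51 in dKO against WT (SE 0.23, limma adjusted p = 0.339).

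Of 44 genes of DNA replication and S phase 0 passed in any comparison. Their medians were 0.13 in dKO against WT, 0.11 in miR-146a_KO against WT and 0.03 in TIFAB_KO against WT. Over all genes the medians were 0.08, 0.09 and -0.01. At an unadjusted p under 0.05, 7 were higher and 1 lower in dKO against WT (9.7% and 4.36% of all genes). In miR-146a_KO against WT 9 were higher and 0 lower (7.23% and 2.3%), and in TIFAB_KO against WT 2 and 0 (2.99% and 2.12%). Rrm2, a subunit of ribonucleotide reductase, had 7.15, 7.03, 7.45 and 7.23 log2 CPM in dKO libraries, 7.38, 7.44 and 7.28 in miR-146a_KO libraries, 6.72, 7.17 and 7.07 in TIFAB_KO libraries, and 6.69, 6.77 and 6.90 in WT libraries, a log2 fold change of 0.58 in miR-146a_KO against WT (SE 0.15, limma adjusted p = 0.315). Cdc6, a replication licensing factor, had one of 0.60 (SE 0.17, limma adjusted p = 0.404). All 3 miR-146a_KO libraries lay above the WT libraries in both, as they did in 15.5% of all genes tested.

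Among 12 tested genes of a list of replication-independent histone variants, 1 passed, and it was lower: H2afy, which encodes macroH2A. The list also held Hmgb2 and Hmgn2, which are chromatin proteins and not histones. H2afy had 8.55, 8.57, 8.34 and 8.18 log2 CPM in dKO libraries, 9.58, 9.60 and 9.37 in miR-146a_KO libraries, 8.72, 8.18 and 8.25 in TIFAB_KO libraries, and 9.27, 9.48 and 9.59 in WT libraries. Its log2 fold change was -1.04 in dKO against WT (SE 0.15, limma adjusted p = 0.00533), -1.06 in TIFAB_KO against WT (SE 0.16, limma adjusted p = 0.0380) and -1.11 in dKO against miR-146a_KO (SE 0.15, limma adjusted p = 0.00371), and 0.07 in miR-146a_KO against WT (limma adjusted p = 0.904). H2afy lies at chr13:56073619-56136361, 37342 bases from Tifab at chr13:56173704-56178885 on the same strand (GENCODE M21, GRCm38), so its level and the altered Tifab allele cannot be told apart by these groups. The limma call in dKO against WT was lost with no filter on low values (adjusted p = 0.0501), with no variance trend (adjusted p = 0.0935) and without WT replicate 2 (adjusted p = 0.0733, log2 fold change -1.02). In TIFAB_KO against WT, no gene passed under several settings, quantile normalisation and leaving out WT replicate 2 among them. H1f0, the replacement linker histone, had 5.54, 5.41, 5.38 and 5.44 log2 CPM in dKO libraries, 4.70, 4.97 and 4.80 in miR-146a_KO libraries, 5.86, 5.21 and 5.68 in TIFAB_KO libraries, and 5.60, 5.69 and 5.64 in WT libraries, a log2 fold change of -0.82 in miR-146a_KO against WT (SE 0.17, limma adjusted p = 0.142).

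Other RNAs that lack a usual poly(A) tail in all or part were set beside the members. Of 7 tested, 0 passed in any comparison. Malat1 had 11.88, 11.74, 11.88 and 11.84 log2 CPM in dKO libraries, 12.05, 11.62 and 12.05 in miR-146a_KO libraries, 11.75, 11.52 and 9.77 in TIFAB_KO libraries, and 11.56, 11.78 and 12.05 in WT libraries, a log2 fold change of -0.78 in TIFAB_KO against WT (SE 0.34, limma adjusted p = 0.930) that was -0.16 without TIFAB_KO replicate 3. Neat1, a second nuclear RNA, had a log2 fold change of 0.72 in miR-146a_KO against WT (SE 0.33, limma adjusted p = 0.521).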

How the data were processed

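RNA was measured in 13 libraries of sorted LK cells: 4 dKO, 3 miR-146a_KO, 3 TIFAB_KO and 3 WT. Per the labels' protocols, total RNA was amplified (Ovation RNA-Seq System v2, NuGEN), and sequencing libraries were prepared by tagmentation (Nextera XT). The submitters' processing notes name TopHat, featureCounts and limma and the build mm10, with no versions. The deposited values are log2 CPM of the voom form, in which the authors offset a gene's reads by 0.5 and its library's total by 1. Undoing this gave whole reads, within 0.01 read, in 100% of values. Lower depth widens the error of low genes, and all 13 columns of values were used.

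Tests used limma 3.58.1 in R 4.3.3 on the deposited log2 values: 1 mean per group over all libraries, moderated variances with a trend on the mean (residual degrees of freedom 9, prior 9.53), 11867 genes with a mean of at least 0, and two-sided Benjamini-Hochberg adjustment within each of 6 comparisons. The fit was run on simulated counts with changes set in dKO alone and no library that stands apart. It therefore does not show how the fit behaves with libraries such as TIFAB_KO replicate 3. Fold changes are the first group minus the second, with SE from limma. Values in every library were given for the 3 members of each type with the highest mean log2 CPM, not corrected for length. They were also given, in each comparison, for the 2 members with the smallest unadjusted p in each direction. For each gene list the 2 genes with the smallest unadjusted p against WT were named. Positions and stem-loops came from GENCODE M21 and promoters from RefSeq. Members, gene lists and tests were chosen with earlier results of these data known. Alternatives covered filters, scaling, variance models, weights, a replicate block and each library left out. Same-numbered libraries of different groups correlated at over 0.1 in 2 of 18 pairs (-0.20 to 0.23), so the numbers were not taken to pair libraries.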

Additional observations from a re-analysis of the deposited data

Results flagged for a closer look

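Of the 22 histone genes given in every library, 2 had a dKO library that stood apart from the other 3, with a gap to its nearest neighbour above 0.829 of the group's range. Chance alone flags about 1 in 20 such groups, and 650 of all 11867 genes tested (5.48%) had such a dKO library, so 2 of 22 is no result about the histone genes. Hist1h2bl stood at 5.93 log2 CPM in dKO replicate 4, and the other dKO libraries lay at 5.39 to 5.46. Hist1h2ai stood at 1.86 log2 CPM in dKO replicate 3, and the other dKO libraries lay at 1.27 to 1.30.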

How the results depend on the processing

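Across 46 results and 26 settings, 1112 values kept their direction and their side of the threshold or, for medians, stayed within the spread between libraries. A further 7 member medians stayed within that spread but changed sign: in miR-146a_KO against WT -0.0049 with median centring, -0.016 with quantile normalisation, -0.015 without WT replicate 3 and -0.0010 without miR-146a_KO replicate 3, in dKO against WT -0.015 at a mean of at least 3, and in dKO against miR-146a_KO 0.095 at a mean of at least 3 and 0.040 without dKO replicate 2. Part of the 1112 was fixed in direction in advance. Leaving out a library of a group outside a comparison cannot change the fold changes of that comparison. Settings that alter only the variance model or the threshold cannot change them either. Leaving out 1 library gave member medians of -0.015 to 0.21 in miR-146a_KO against WT, 0.020 to 0.18 in dKO against WT and -0.18 to 0.040 in dKO against miR-146a_KO. In place of 0, 1 histone member passed in miR-146a_KO against WT with library quality weights (Hist1h3d) and with only the groups compared (Hist1h2bc), and in dKO against WT with library quality weights (Hist1h3d at 1.72, limma adjusted p = 0.0115). The replicate block, in which dKO replicate 4 is alone and drops out, gave 1 member in dKO against WT and 1 in dKO against TIFAB_KO, Hist1h3d in both (2.12 and 2.20), with 281 and 146 of all genes called. Leaving out 1 library at a time gave 0 to 1 members in each of these comparisons, with 1 where dKO replicate 4 was left out. The member median ranged from -0.0016 to 0.39 in TIFAB_KO against WT, from -0.30 to -0.0075 in dKO against TIFAB_KO and from -0.49 to -0.046 in the interaction, in each case nearest to 0 without TIFAB_KO replicate 3; it was also -0.0016 in TIFAB_KO against WT without both TIFAB_KO replicate 3 and dKO replicate 3. Hist1h2ac in dKO against miR-146a_KO ranged from -1.12 to 0.088 and was positive without miR-146a_KO replicate 3. H1f0 and Rrm2 passed in miR-146a_KO against WT with only the groups compared, and H1f0 also without TIFAB_KO replicate 2. Library quality weights let H1f0, Rrm2 and Cdc6 pass in miR-146a_KO against WT and Npat and Snrpe in dKO against WT. All genes called numbered 792 in dKO against WT and 213 in miR-146a_KO against WT with those weights, and 44 in TIFAB_KO against WT without TIFAB_KO replicate 1. They numbered 89 in miR-146a_KO against WT with only the groups compared. Without dKO replicate 4 they numbered 336 in dKO against WT and 278 in dKO against TIFAB_KO. The cause of these changes was not tested. Low read numbers limit Hist4h4, Hist1h4k and Hist1h2bp.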

Other observations

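Among the 13 libraries, dKO replicate 4 and WT replicate 1 stood at the same end in 4 histone genes, which were chosen after their values were seen. In Hist1h2be they had 5.49 and 6.67 log2 CPM, against 3.44 to 4.96 in the others. In Hist1h2bk they had 2.13 and 3.16, against 0.47 to 1.70. In Hist1h2ab they had 3.95 and 3.64, against 4.57 to 5.56, and in Hist2h2ac 4.83 and 4.57, against 5.16 to 6.21. The 2 libraries belong to different groups, and no label sets them apart from the rest of their groups. The share of all genes tested with this pattern was not counted, so these 4 genes are no result about the histone genes.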
